A study of Homo sapiens with 18 samples.

Results

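The regions described here are 554 EWSR1-FLI1 binding sites of A673 cells at which RING1B was listed in a single replicate, 25.8% of the 2145 EWSR1-FLI1 peaks deposited. They were chosen by peak overlap in hg19 coordinates. Peaks of both RING1B replicates that shared at least 1 bp were merged, and a merged region was termed reproducible when both replicates contributed a peak to it. A peak of the EWSR1-FLI1 list belonged to the set when it shared no base with a reproducible RING1B region but at least 1 bp with a RING1B peak of one replicate. Of the 554 sites, 277 met RING1B in replicate 1 only and 277 in replicate 2 only, and 0 met separate peaks of both. The remaining EWSR1-FLI1 peaks comprised 897 with a reproducible RING1B region (41.8%) and 694 without any RING1B peak (32.4%).

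A673 is an established Ewing sarcoma cell line that carries the fusion under study, and the labels give no treatment for any of the samples used. Chromatin was immunoprecipitated for EWSR1-FLI1 (1 sample, Abcam antibody), RING1B (2 replicates, MBL antibody of the same lot) and ubiquitinated histone H2A, here H2Aub1 (2 replicates, Cell Signalling antibody). Each sample contributed 1 deposited peak list. The labels do not state that replicates came from separate cultures. The title lines of the RING1B lists carry different names whose meaning is not given, so any difference in how those replicates were prepared or called cannot be told apart from replicate in the contrasts below. EWSR1-FLI1 had no replicate, so the error of its own peak calls is unknown.

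EWSR1-FLI1 joins the activation domain of EWSR1 to the DNA-binding domain of FLI1, an ETS transcription factor. The fusion binds single ETS motifs and, unlike normal FLI1, long GGAA repeats that it turns into enhancers in Ewing sarcoma cells. RING1B is the catalytic ubiquitin ligase of Polycomb repressive complex 1, which places H2Aub1 on chromatin and is best known for silencing developmental genes, although it has also been found at active enhancers.

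The RING1B lists were of unequal length, with 2573 peaks in replicate 1 and 3945 in replicate 2. The H2Aub1 lists held 26423 and 10268 peaks, and merging them gave 6408 reproducible regions with peaks of both. All lists began at a score close to 50, and they hold no read counts, so depth is unknown and the RING1B level at a site in the replicate that did not list it is not known either. A site of the set therefore differs from one with reproducible RING1B by a peak that was not listed, which is not the same as RING1B being absent.

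Single-replicate sites were moderate EWSR1-FLI1 sites. The authors' EWSR1-FLI1 score, which the selection did not use, had a median of 88.3 at sites with RING1B in replicate 1 only (quartiles 64.2 and 134, range 50.3 to 465). At sites with RING1B in replicate 2 only the median was 81.6 (quartiles 60.4 and 124, range 50.4 to 381). Both medians lay between that of peaks without RING1B (68.9) and that of peaks with a reproducible region (166), and below the median of the whole list (93.9). The ranges of the 4 classes overlapped widely. None of the 554 sites ranked among the first 100 of the EWSR1-FLI1 list by score, of which 99 had a reproducible RING1B region and 1 had no RING1B peak. The highest-scoring site of the set ranked 132 in the list.

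Single-replicate sites took a nearly constant share of the lower 3 score quartiles of the EWSR1-FLI1 list and a lower one of the top quartile. They were 161 of 537 peaks in the lowest quartile (95% Wilson interval 26.3 to 34.0%), 30.2% in the second, 30.4% in the third and 12.7% in the highest (68 of 536, 10.1 to 15.8%). Peaks without any RING1B peak made up 55.3% of the lowest quartile and 6.53% of the highest, and those with a reproducible region 14.7% and 80.8%. Among peaks with any RING1B peak, the share listed in both replicates was accordingly 32.9%, 45.8%, 60.3% and 86.4% from the lowest to the highest quartile. These shares are a description without a test, and the Wilson intervals here and below cover counting error over peaks only.

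**Figure D1:**
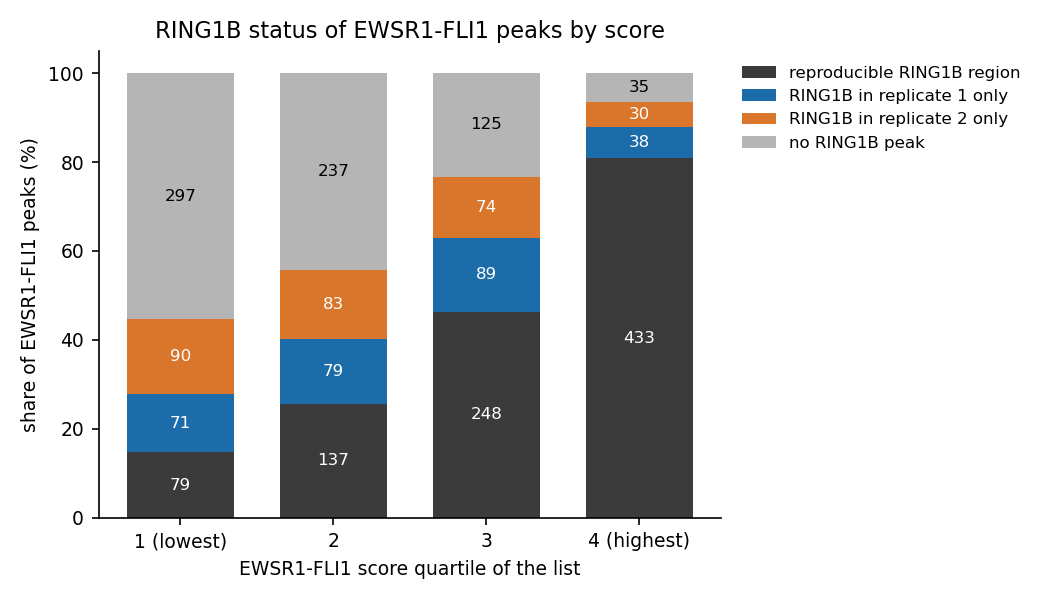
Stacked bars give the share (%) of EWSR1-FLI1 peaks in each RING1B class for the 4 score quartiles of the list, and the number inside each segment counts peaks. Sites with RING1B in replicate 1 only (71, 79, 89 and 38) and in replicate 2 only (90, 83, 74 and 30) together take a similar share of the lower 3 quartiles. Their share of the highest is smaller. Over the lower 3 quartiles the former counts rise and the latter fall.

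Where a single replicate listed RING1B, its peak mostly lay close to the centre of the EWSR1-FLI1 peak. The selection required overlap of these peaks, so the distances are a description without a test. Exceptions included chr11:44212340-44216602 (centres 1026 bp apart, replicate 1) and chr5:139089089-139089961 (808 bp, replicate 2). The centres of both peaks were a median of 61.0 bp apart in replicate 1 (quartiles 29.5 and 102) and 67.5 bp in replicate 2 (32.0 and 124), close to the 63.5 and 65 bp measured at EWSR1-FLI1 peaks that have a reproducible region. In replicate 1, 270 of 277 sites (97.5%) had centres within 250 bp, and in replicate 2, 254 of 277 (91.7%). The shared stretch covered at least 90% of the shorter peak at 256 sites (92.4%) and 246 sites (88.8%). The smallest shared stretch was 520 bp in replicate 1 and 325 bp in replicate 2.

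At the edge of the overlap rule, the 3 sites with the fewest shared bases all had RING1B in replicate 2. The first, at chr5:139089089-139089961, shared 325 bp and had an EWSR1-FLI1 score of 53.17. The second was chr20:39274770-39275910 (403 bp, score 129.33), and the last was chr6:40407531-40408487 (409 bp, score 54.76). Just outside the rule, the 3 EWSR1-FLI1 peaks closest to a RING1B peak without sharing a base were chrX:35525449-35526594 (gap of 174 bp to replicate 1, score 337.39), chr6:15432953-15433978 (256 bp to replicate 2, score 64.97) and chr8:98097662-98098417 (332 bp to replicate 2, score 96.83). Only 9 of the 694 peaks without RING1B had a RING1B peak within 1 kb.

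The RING1B peaks under these sites had lower median scores than those at EWSR1-FLI1 peaks with a reproducible region. The selection used the RING1B lists, so their scores are given as a description. Their median was 77.3 in replicate 1 (range 50.4 to 435) and 77.1 in replicate 2 (up to 445). All peaks of the respective lists had medians of 88.9 and 78.2, and single-replicate RING1B peaks without EWSR1-FLI1 had 64.6 and 66.5. Scores under 100 were found at 204 (73.6%) and 219 (79.1%) of the sites, and the share of each whole list under 100 is not given here. The median percentile of these peaks within their own lists was 40.5 in replicate 1 and 49.0 in replicate 2, near the middle of the latter. EWSR1-FLI1 peaks with a reproducible region had median RING1B scores of 146 and 143. Within the set, EWSR1-FLI1 and RING1B scores were only weakly related. Spearman's rho was 0.148 across the 277 sites of replicate 1 and 0.129 across the 277 of replicate 2, and Pearson's r of log2 scores was 0.200 and 0.180. Each point is a site of the same 2 libraries, and no test was made.

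**Figure D2:**
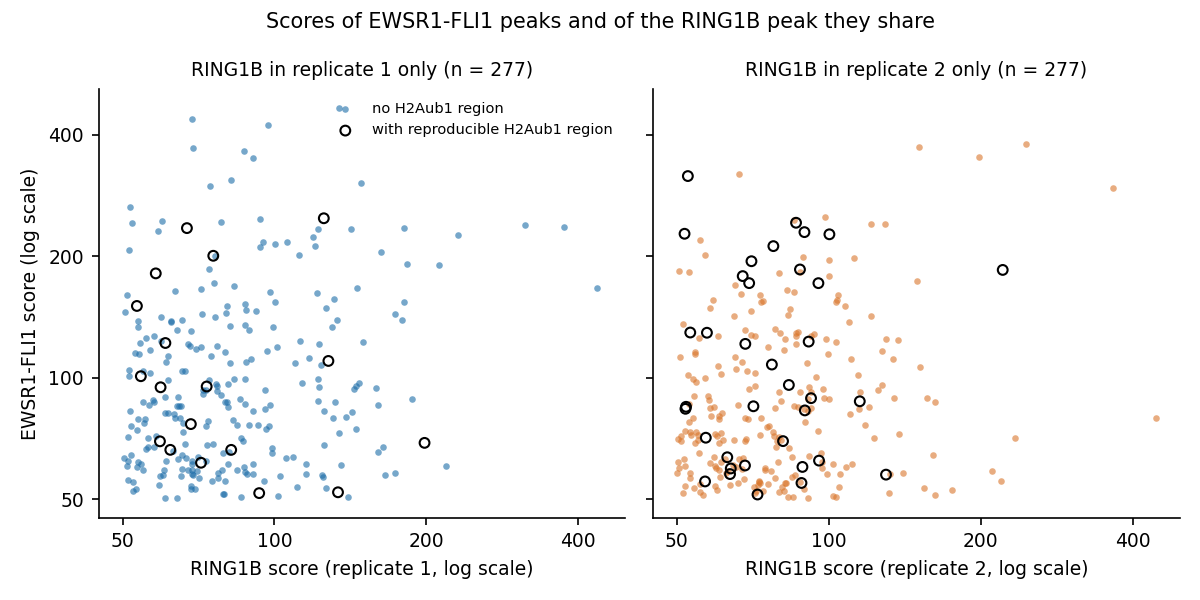
Each point is an EWSR1-FLI1 peak, with the score of its single-replicate RING1B peak on the horizontal axis and its EWSR1-FLI1 score on the vertical axis (both log scales, authors' scores without a unit), and open circles carry a reproducible H2Aub1 region. Most points lie at RING1B scores under 100 in both panels, as do the medians of the whole RING1B lists (88.9 and 78.2). Open circles number 18 on the left and 36 on the right.

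The equal numbers of sites in both replicates came from RING1B lists of different length. Replicate 1 had 962 RING1B peaks outside reproducible regions (37.4% of its list), and 278 of them (28.9%, 26.1 to 31.8%) carried EWSR1-FLI1. Replicate 2 had 2330 such peaks (59.1% of its list), of which 278 (11.9%, 10.7 to 13.3%) carried EWSR1-FLI1. The share was higher at higher RING1B scores, 16.9% in the lowest and 42.5% in the highest quartile of replicate 1 and 7.88% and 16.8% in those of replicate 2. In each quartile the share of replicate 1 lay above that of replicate 2, and their intervals did not overlap. RING1B peaks in reproducible regions carried EWSR1-FLI1 in 55.2% and 55.3% of cases in the respective lists. Both shares were counted over the same 1587 regions, each with peaks of both replicates, so their closeness follows from the rule. With the list of replicate 2 reduced to the 2573 peaks of highest score, 394 sites had RING1B in replicate 1 only and 185 in replicate 2 only, so the balance of 277 against 277 belongs to the lists as deposited.

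**Figure D3:**
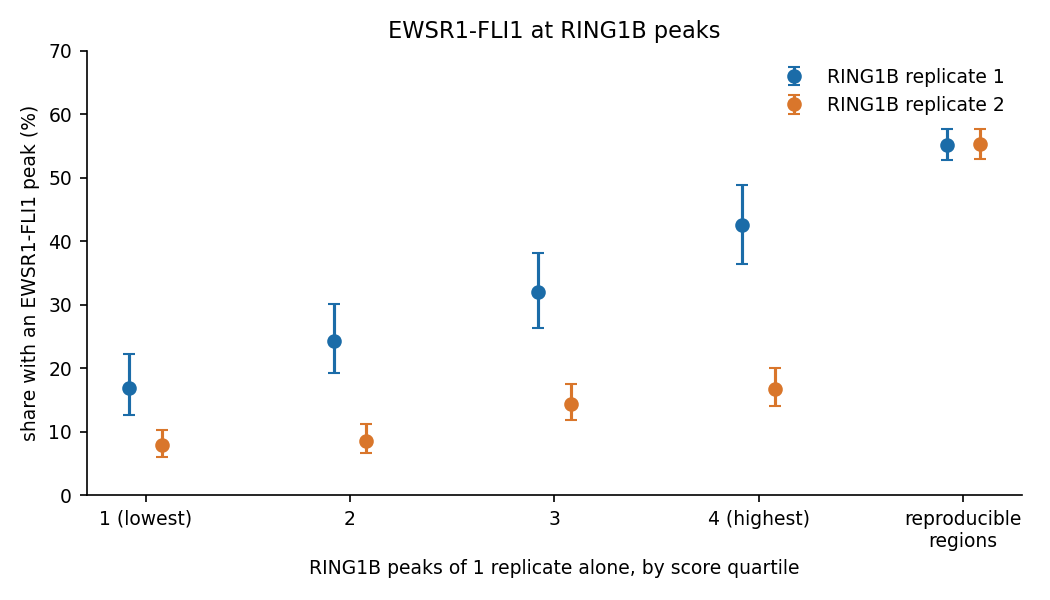
Points give the share (%) of RING1B peaks that share a base with an EWSR1-FLI1 peak, for peaks of 1 replicate alone by their score quartile and for peaks in reproducible regions, and bars are 95% Wilson intervals. Replicate 1 lies above replicate 2 in every quartile (42.5% against 16.8% in the highest). The points for reproducible regions (55.2% and 55.3%) cover the same regions in both replicates, so their closeness follows from the rule.

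Most sites had no RING1B peak of the other replicate nearby, and close pairs were few. The gap to the closest RING1B peak of the other replicate was a median of 123 kb for sites with replicate 1 only and 267 kb for those with replicate 2 only, the former being measured against the longer list. A gap of at most 1 kb was found at 4 sites of each kind, and a gap of at most 10 kb at 27 (9.75%) and 29 (10.5%). The smallest gaps were 55 bp at chromosome 3 from 115578048 to 115579263 (replicate 1 only, EWSR1-FLI1 score 99.21) and 129 bp at chromosome 1 from 71285169 to 71286130 (replicate 1 only, score 60.72). For peaks without RING1B, 68 of 694 (9.80%) lay within 10 kb of a RING1B peak of either replicate.

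The highest-scoring site with RING1B in replicate 1 only lay on chromosome 12 from 17501038 to 17501998 (EWSR1-FLI1 score 465.10, RING1B score 134.14), 21402 bp from the next RING1B peak of replicate 2. It was followed by a site on chromosome 1 (58556259 to 58557375, EWSR1-FLI1 score 437.77, RING1B score 68.63), by chr8:81425977-81427057 (423.67 and 97.06) and chr5:141930612-141931705 (371.15 and 68.88). The 6 that completed the first 10 were chr14:22002308-22003241, chr17:12830536-12831758, chr12:117780568-117781857, chr14:86979085-86980518, chr13:30789988-30790840 and chr1:85527089-85528046, with EWSR1-FLI1 scores from 365.17 down to 264.90. None of these 10 sites shared a base with a reproducible H2Aub1 region, beside 6.50% of all sites with replicate 1 only and 8.81% of all EWSR1-FLI1 peaks. Those at chr8:81425977-81427057 and chr17:12830536-12831758 did meet an H2Aub1 peak of replicate 1. At 9 of the 10 the RING1B peak of the other replicate that lay closest was more than 50 kb away. High EWSR1-FLI1 scores here stood beside RING1B scores between 51.67 and 148.24.

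The highest-scoring site with RING1B in replicate 2 only lay on chromosome 1 from 12045545 to 12046613 (EWSR1-FLI1 score 380.54, RING1B score 246.43). Next came a site on chromosome 2 (33874067 to 33875321, EWSR1-FLI1 score 373.20, RING1B score 151.26), then chr13:110304579-110305623 (352.43 and 198.20) and chr21:46350268-46351701 (319.72 and 66.38). The site on chromosome 13 was 1649 bp from a RING1B peak of replicate 1, and the one on chromosome 21 was 4392 bp from one. A site on chromosome 11 (69413897 to 69415085, EWSR1-FLI1 score 295.06) had the highest RING1B score of these 10 (365.95), and the closest RING1B peak of replicate 1 was 20338 bp away. The other 5 were chr2:25299105-25300232, chr3:125989498-125990587, chr6:9980168-9981146, chr6:9554739-9555520 and chr2:38964157-38965127, with EWSR1-FLI1 scores from 316.27 down to 240.18. The site at 25299105 and the one at 9554739 shared bases with a reproducible H2Aub1 region. Such a region was met by 13.0% of all sites with replicate 2 only and by 8.81% of all EWSR1-FLI1 peaks. The site at 33874067 met an H2Aub1 peak of replicate 1 but no reproducible region.

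Sites of both kinds could lie side by side, as 2 neighbourhoods picked after their values were seen illustrate. On chromosome 3, an EWSR1-FLI1 peak at 115550212 to 115551389 (score 92.02) met RING1B in replicate 2 only (RING1B score 115.44), while one at 115578048 to 115579263 (99.21) met it in replicate 1 only (87.60). The closest RING1B peak of the other replicate was only 630 bp from the former and 55 bp from the latter. Between and beside these sites, 3 further EWSR1-FLI1 peaks with scores of 64.09, 74.94 and 67.85 had reproducible RING1B. On chromosome 12, 9 EWSR1-FLI1 peaks between 89433574 and 89741149 included 4 with RING1B in replicate 1 only, 1 in replicate 2 only, 3 with reproducible RING1B and 1 with none. The reproducible peaks there scored 1422.84, 280.51 and 93.45. The 4 peaks of replicate 1 scored 122.27, 123.21, 82.85 and 67.44, with RING1B scores of 54.09, 112.19, 125.55 and 57.83. A peak with reproducible RING1B thus scored lower than 2 of the single-replicate ones in the same neighbourhood.

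**Figure D4:**
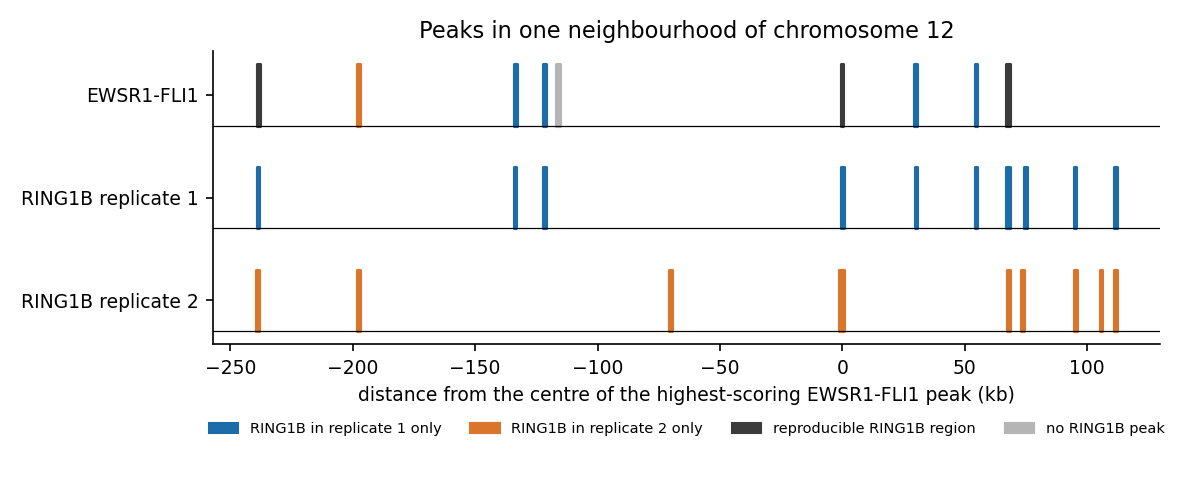
Bars mark the position of EWSR1-FLI1 and RING1B peaks in a neighbourhood of chromosome 12, as distance in kb from the centre of its highest-scoring EWSR1-FLI1 peak, with all bars of equal height and outlined for visibility. EWSR1-FLI1 peaks are coloured by RING1B class, and the 4 blue ones have a peak in the row of RING1B replicate 1 and none in that of replicate 2.

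Measures that the selection had not used were then compared between sites of replicate 1 and of replicate 2, with Fisher's exact test (two-sided) and adjustment over 5 comparisons. None of the 5 passed an adjusted p of 0.05, and the largest contrasts concerned H2Aub1, chromosome ends, the EWSR1-FLI1 score and neighbouring EWSR1-FLI1 peaks. The test sets 2 groups of peaks from the same lists against each other and treats neighbouring peaks as independent.

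H2Aub1 was found at few sites of either kind. A reproducible H2Aub1 region was shared by 18 of 277 sites with RING1B in replicate 1 only (6.50%, 4.15 to 10.0%) and by 36 of 277 with RING1B in replicate 2 only (13.0%, 9.54 to 17.5%), beside 8.81% of all EWSR1-FLI1 peaks. The difference was 6.50 percentage points (Newcombe interval 1.55 to 11.5, odds ratio 2.15, Fisher's exact p = 0.0143, adjusted p = 0.0713). It had the same direction in the H2Aub1 list of replicate 1 (12.6% against 19.9%) and in that of replicate 2 (4.33% against 9.75%). These lists met 14.6% and 7.37% of all EWSR1-FLI1 peaks. They met largely the same sites, as either list met 35 and 57 sites, against 35 and 55 for that of replicate 1. Under a stricter overlap, in which H2Aub1 had to share 50% of the shorter region, 3.25% and 5.78% of the sites carried the mark, beside 3.73% of all EWSR1-FLI1 peaks, a difference of 2.53 points (adjusted p = 0.273 by Fisher's exact test). The adjusted p lay between 0.0379 and 0.273 over 14 alternatives and passed the threshold in 3 of them.

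For the set as a whole, no difference in H2Aub1 from the other EWSR1-FLI1 peaks was detected. The mark was present at 54 of the 554 sites (9.75%, 7.55 to 12.5%), at 78 of 897 peaks with reproducible RING1B (8.70%) and at 57 of 694 without RING1B (8.21%). The differences were 1.05 percentage points (-1.94 to 4.27, Fisher's exact p = 0.512) and 1.53 points (-1.63 to 4.84, Fisher's exact p = 0.368), with adjusted p = 0.512 for both over 2 comparisons. Within 5 kb of a reproducible H2Aub1 region lay 12.6% of the sites with replicate 1 only and 17.3% of those with replicate 2 only, beside 13.1% of all EWSR1-FLI1 peaks. The H2Aub1 regions at the sites ranged from 1196 to 14185 bp in width for replicate 1 only (median 2954) and from 870 to 14205 bp for replicate 2 only (median 2950).

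Sites with RING1B in replicate 2 only lay more often near chromosome ends, by a margin that did not pass after adjustment. Within 10 Mb of a chromosome end lay 29 of 277 sites with replicate 1 only (10.5%) and 46 of 277 with replicate 2 only (16.6%), beside 13.0% of all EWSR1-FLI1 peaks. This difference was 6.14 percentage points (0.420 to 11.9, Fisher's exact p = 0.0464, adjusted p = 0.0896). Peaks with reproducible RING1B stood at 10.8% and those without RING1B at 15.3%, so neither share was particular to single-replicate sites. In the inner part of chromosomes H2Aub1 was shared by 16 of 248 sites (6.45%) and 27 of 231 (11.7%). There it was met by 8.12% of peaks with reproducible RING1B and 7.14% of those without RING1B. Near the ends it was shared by 2 of 29 (6.90%) and 9 of 46 sites (19.6%), beside 13.4% and 14.2% in those 2 classes. The part of chromosome position in the H2Aub1 difference was not tested.

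EWSR1-FLI1 scores above the list median were found at 127 sites with replicate 1 only (45.8%) and 104 with replicate 2 only (37.5%), against 50% in the list by construction. The difference of -8.30 percentage points (-16.4 to -0.0955) had Fisher's exact p = 0.0579 and adjusted p = 0.0896. Among sites above the median, H2Aub1 was present at 10 of 127 (7.87%) and 18 of 104 (17.3%), and among those at or below it at 8 of 150 (5.33%) and 18 of 173 (10.4%). Above the median the mark was met by 8.37% of peaks with reproducible RING1B and 10.0% of those without RING1B. At or below it the shares were 9.72% and 7.68%. The part of the score in the H2Aub1 difference was not tested. The median width was 975 bp in both kinds, and 46.2% and 45.1% exceeded the median width of the list, which 49.9% of all peaks did. The interval of that difference was -9.31 to 7.17 points (Fisher's exact p = 0.865, adjusted p = 0.865).

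Another EWSR1-FLI1 peak lay within 50 kb of 75 sites with replicate 1 only (27.1%, 22.2 to 32.6%) and of 56 with replicate 2 only (20.2%, 15.9 to 25.3%), beside 24.9% of all EWSR1-FLI1 peaks. The difference of -6.86 percentage points (-13.9 to 0.224) had Fisher's exact p = 0.0717 and adjusted p = 0.0896. With a limit of 100 kb the shares were 42.6% and 28.9%, beside 36.8% of all EWSR1-FLI1 peaks, 44.9% of those with reproducible RING1B and 27.1% of those without RING1B. That difference was -13.7 points (adjusted p = 0.00507 by Fisher's exact test), and over all 10 alternatives the adjusted p ranged up to 0.498. The closest such neighbour had reproducible RING1B in 44 of the 75 cases and in 32 of the 56. It was itself a single-replicate site in 12 of the 75 cases (7 of the same replicate and 5 of the other) and in 16 of the 56 (11 and 5). In the whole list, 41.8% of peaks had reproducible RING1B and 25.8% were single-replicate sites. Of all 534 peaks with a neighbour within 50 kb, 280 had reproducible RING1B and 131 were single-replicate sites. These counts were not tested. A reproducible RING1B region without a shared base lay within 50 kb of 20.9% and 16.2% of the sites, and of 11.2% of the peaks without RING1B.

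**Figure D5:**
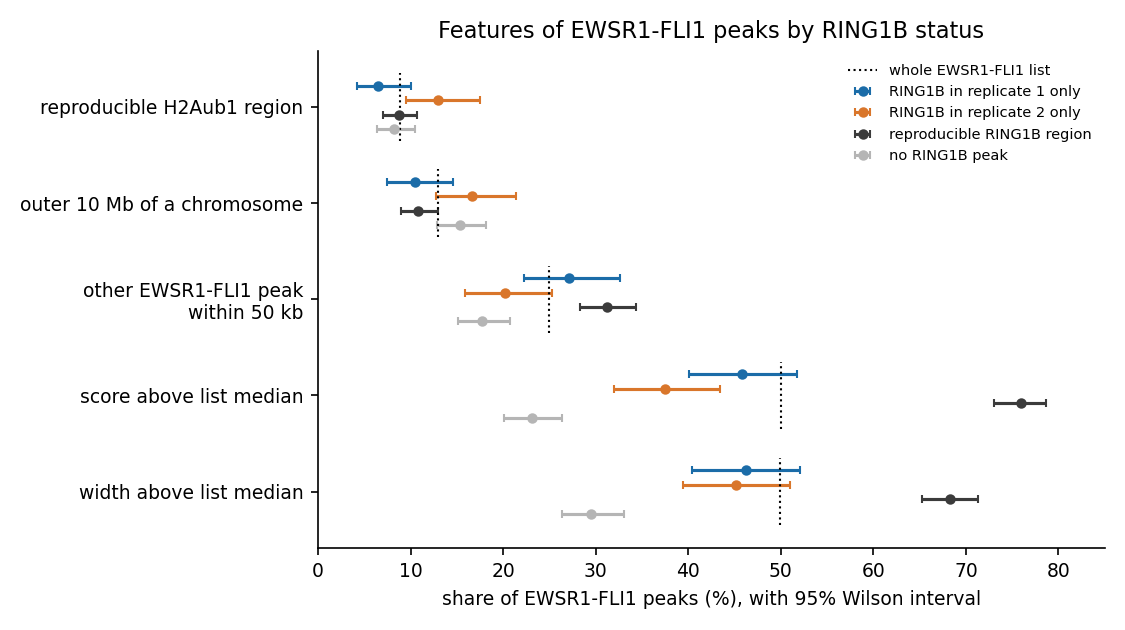
Points give the share (%) of EWSR1-FLI1 peaks with each feature in the 4 RING1B classes, bars are 95% Wilson intervals, and dotted lines mark the share in the whole EWSR1-FLI1 list. Sites with RING1B in replicate 1 only and in replicate 2 only have overlapping intervals in all 5 features, and their scores and widths lie between those of the other 2 classes. Overlap of these intervals does not test a difference, and the Newcombe intervals of the 5 differences are given in the text.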

How the data were processed

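Peak lists of 5 of the 18 samples were used (EWSR1-FLI1, 2 of RING1B, 2 of H2Aub1), and the other 13 samples were not analysed here. Per the submitters' processing notes, Bowtie and hg19 are named for all 5 samples, and mm9 also for those of RING1B and H2Aub1. Peak names begin with MACS per the files, and versions, controls and filters are not given in the sources used here. Track title lines differ between the lists of both RING1B and H2Aub1 replicates, in names whose meaning is not given. The value of each peak is the authors' score, deposited without its scale, and was ranked or described within a list only.

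Coordinates are hg19 and 1-based. Overlaps, Wilson and Newcombe intervals, Fisher's exact tests and Benjamini-Hochberg adjustment (over 5 and 2 tests) were computed in Python 3.11.15 with scipy 1.17.1. Chromosome lengths came from GenomeInfoDb 1.38.1. Alternatives changed the overlap rule, the length of the RING1B lists, the sites kept, the H2Aub1 replicates and each threshold. Intervals cover counting error only. The overlap rule and the test were tested on simulated data. Named regions were the 10 sites per replicate with the highest EWSR1-FLI1 score and the 3 nearest each side of the overlap rule. The sites and measures were chosen with earlier results of these data known. No hg19 sequence or gene models were used here, so sequences, motifs and gene names are not given, and the planned shares with GGAA repeats and near gene starts were not run.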

Additional observations from a re-analysis of the deposited data

How the results depend on the processing

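The differences below are replicate 2 only minus replicate 1 only, in percentage points, with adjusted p from Fisher's exact test. By Fisher's exact test, for H2Aub1 the difference kept its sign in 14 alternatives (2.53 to 9.43) and passed the threshold in 3, with 6.59 when 50% of the shorter peak had to be shared with RING1B (adjusted p = 0.0494), 6.50 without sites within 10 kb of a RING1B peak of the other replicate (adjusted p = 0.0379) and 6.86 on autosomes (adjusted p = 0.0413). Without either H2Aub1 replicate it was 5.42 to 7.22. In Fisher's exact test without sites within 10 kb, the share above the median score differed by -9.71 (adjusted p = 0.0482) and the share with an EWSR1-FLI1 neighbour by -9.09 (adjusted p = 0.0379), the latter reaching -13.7 with a limit of 100 kb (adjusted p = 0.00507). Leaving out those sites was the only one of 9 alternatives in which the score difference passed, and the difference was -6.57 with RING1B lists of equal length (adjusted p = 0.237, Fisher's exact test) and -2.89 for the upper quartile of score (adjusted p = 0.456). The neighbour difference was -5.22 with lists of equal length (adjusted p = 0.237, Fisher's exact test). With RING1B lists of equal length the share near chromosome ends differed by 8.45 (adjusted p = 0.0294, Fisher's exact test), the only one of 10 alternatives to pass. It differed by 4.52 in the highest-scoring 50% of each RING1B list (adjusted p = 0.185, Fisher's exact test), 4.69 for the outer 5 Mb (adjusted p = 0.0896) and 9.96 in the highest-scoring 50% of the EWSR1-FLI1 list (adjusted p = 0.0829). The width difference of -1.08 was 1.44 with lists of equal length and 1.08 for the upper quartile of width. The H2Aub1 difference between the set and peaks with reproducible RING1B ranged from -0.653 to 2.76 when either H2Aub1 replicate was left out, and that to peaks without RING1B from -0.165 to 1.55. The former was 3.74 in the highest-scoring 50% of each RING1B list (adjusted p = 0.0672, Fisher's exact test) and 3.75 in that of the EWSR1-FLI1 list (adjusted p = 0.230), and the latter reached 3.17 for H2Aub1 within 5 kb (adjusted p = 0.220). In the 50% of the EWSR1-FLI1 list with the highest scores 127 and 104 sites were left, fewer by construction, and the score comparison gives no value there. The cause of the other changes was not tested. No paired analysis was possible because the groups compared are the RING1B replicates themselves, and neither RING1B replicate could be left out for the same reason.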

Other observations

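Chromosomes were shared unequally by the 2 kinds of site, a pattern picked after the counts were seen and not tested. The 6 chromosomes with the most protein-coding genes per Mb (19, 17, 11, 16, 22 and 20, by gene counts of RefSeq for GRCh38 over hg19 lengths) make up 15.8% of the hg19 length without Y. They held 30 of 277 sites with RING1B in replicate 1 only (10.8%) and 54 of 277 with RING1B in replicate 2 only (19.5%), beside 14.8% of all EWSR1-FLI1 peaks. All RING1B peaks of 1 replicate alone showed the same order, with 12% of 962 in replicate 1 and 21.6% of 2330 in replicate 2. Chromosome 16 held 2 and 11 sites among 54 EWSR1-FLI1 peaks and chromosome 19 held 0 and 5 among 30, whereas chromosome 14 held 14 and 7 among 72. Of the 6 chromosomes, only chromosome 22 held more sites of replicate 1 (3 and 2). Outside the 6, several held more of replicate 2, such as chromosome 3 (18 and 27) and X (3 and 9). The 5 Mb window with the most sites lay on chromosome 12 (85000001 to 90000000), with 5 of replicate 1 and 1 of replicate 2 among 12 EWSR1-FLI1 peaks.

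H2Aub1 was also counted at single-replicate RING1B peaks with and without EWSR1-FLI1. In replicate 1 a reproducible H2Aub1 region was present at 19 of the 278 RING1B peaks with EWSR1-FLI1 (6.83%) and at 89 of the 684 without it (13.0%). In replicate 2 these shares were 36 of 278 (12.9%) and 195 of 2052 (9.50%). Neither these shares nor the difference between the replicates was tested.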
